A study of Canis lupus familiaris with 18 samples.

Results

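Growth factor expression was examined for 7 of the 84 genes measured in mesenchymal stem cells from dog fat (cAD-MSCs): VEGFA, FGF2, HGF, FGF10, IGF1, EGF and BDNF, taken by their symbols and not by their values. The cells came from abdominal fat of 9 female dogs aged 6 to 60 months (median 12). Enzymatic digestion of the fat gave a stromal vascular fraction, and the adherent cells of that mixture were grown in serum-containing medium and sampled from the same donors at passage 3 (P3, 9 samples) and passage 6 (P6, 9 samples), without sorting or treatment. Each gene was read in 1 well per sample by RT-qPCR, which gives a threshold cycle (CT), the cycle at which the product crosses a fixed signal. The comparison of the passages asks how expression differs after longer culture, and within it the 7 genes show the range of trophic messages that the cells carried.

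The 7 genes encode secreted ligands by which mesenchymal stromal cells act on their neighbours. VEGFA drives endothelial growth, FGF2 is a mitogen for stromal and endothelial cells, and HGF promotes motility, survival and vessel growth through the receptor MET. FGF10 passes from mesenchyme to epithelium and takes part in the formation of fat, IGF1 promotes growth and survival through its receptor tyrosine kinase, EGF drives proliferation of epithelial and stromal cells, and BDNF is a neurotrophin.

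Levels are given as −ΔCT, the mean CT of 5 reference genes minus the CT of the gene, so that 1 unit is a doubling and a higher number is more transcript per reference transcript. A well that had not crossed by 35 cycles was set to 35 and gives only an upper bound on the level. The reference genes themselves crossed at 14.85 ± 0.508 cycles (SD, n = 9 donors) in P3 samples and 14.65 ± 0.321 cycles in P6 samples, with a two-sided exact permutation p of 0.344. Of the 63 wells of the 7 genes per passage, 60 crossed at P3 and 59 at P6. VEGFA, FGF2, HGF, FGF10 and BDNF were detected in all 18 samples, as were 60.7% of the 84 genes, and the wells that did not cross belonged to IGF1 and EGF.

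Between 75 and 81 of the 84 genes were detected per sample at P3 and between 72 and 77 at P6. Of the 5 mesenchymal markers, 4 were detected in all 9 donors at P3 and 5 at P6. The leukocyte markers PTPRC and ITGAX were detected in 9 and 8 donors at P3 and in 4 and 3 at P6, and the log2 of their summed level was between −15.19 and −6.59 in P3 samples and between −19.87 and −15.52 in P6 samples. In these bulk cultures fewer cells of a type and less RNA per cell cannot be told apart. The P6 sample of donor 9/21 stood apart from the others, with 17 genes more than 5 cycles from the P6 median, against 10 in the P6 sample of donor 7/22, 7 in the P6 sample of donor 6/22, 7 in the P3 sample of donor 7/22 and no more than 6 in any other. HGF and EGF were among the 17 genes in donor 9/21, IGF1 among those of donor 7/22 at P6, and IGF1 and EGF among those of donor 6/22.

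No difference between the passages passed the test for any of the 7 genes. In limma's moderated linear model with Benjamini-Hochberg adjustment over the 84 genes, 0 of the 7 had an adjusted p under 0.05, where the share over the array was 1.19%, and 0 had an unadjusted p under 0.05, where the share was 5.95%. The exact permutation test likewise called 0 of the 7, and over the 84 genes it called 0 after adjustment and 5 before it. The mean was higher at P6 for HGF, EGF, BDNF and FGF2 and lower for VEGFA, IGF1 and FGF10, beside 46.4% of the 84 genes with a higher and 53.6% with a lower mean. Means at least 2-fold apart were found for 3 of the 7 genes (HGF, EGF and IGF1), near the 36.9% of the array, and medians at least 2-fold apart for 1 (HGF), beside 16.7%. For IGF1 this depended on the CT given to undetected wells, since a limit of 32 cycles gave a log2 difference of −0.05. Only HGF had at least 7 of 9 donors on the side of its mean, as 25% of the 84 genes had, and none had 8, as 7.14% had. The median log2 difference was 0.09 over the 7 genes and −0.05 over the 84.

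**Figure D1:**
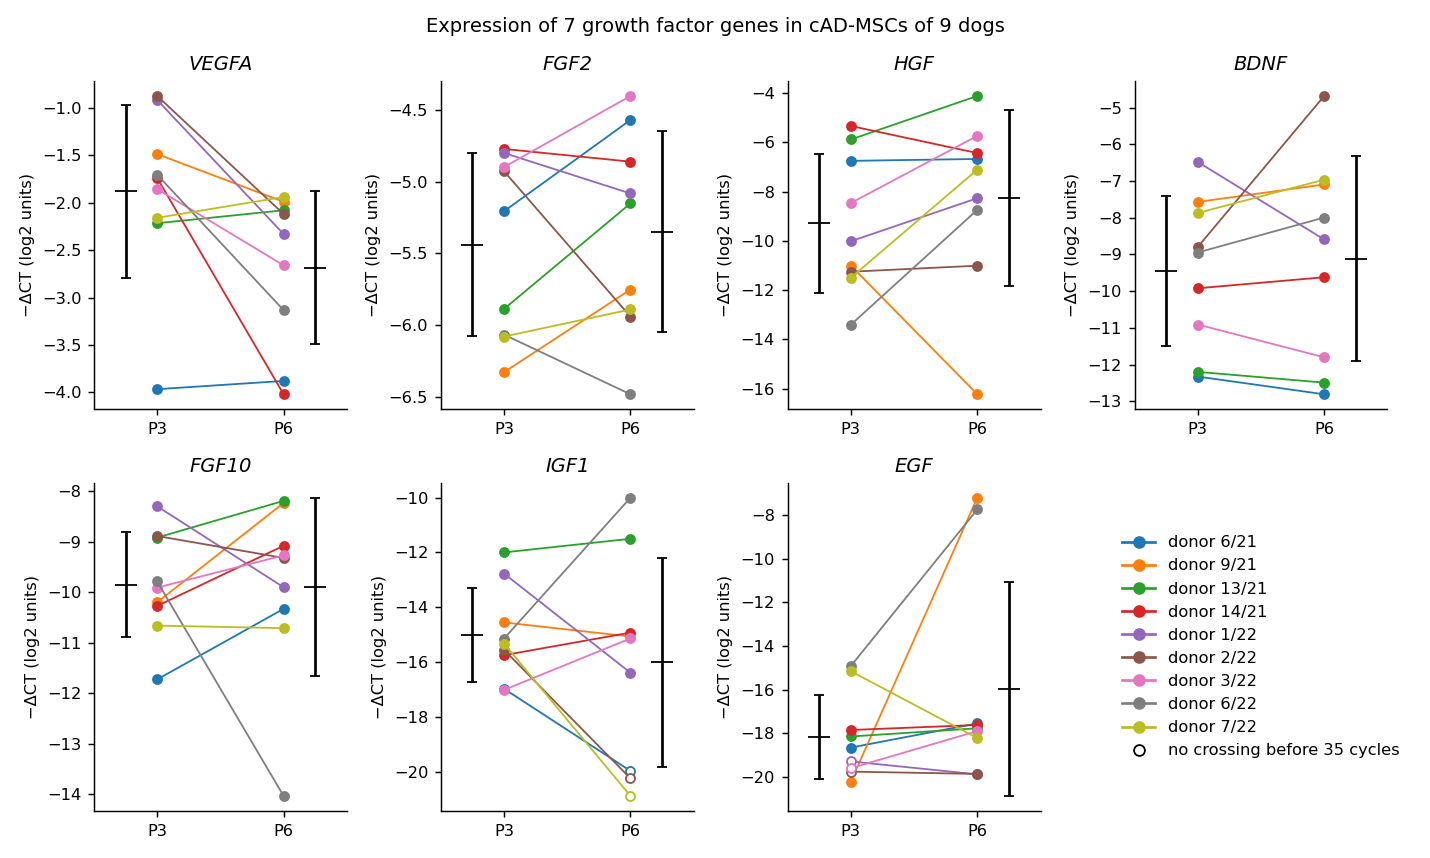
Level of each growth factor gene as −ΔCT (log2 units, vertical axis, own scale per gene) at P3 and P6, with 1 coloured line per donor, black bars for the mean ± SD of 9 donors, and open circles for wells that had not crossed by 35 cycles. The values of P3 and P6 overlap for every gene, IGF1 and EGF spread more widely at P6, and at P6 donor 9/21 is lowest for HGF, donor 6/22 is lowest for FGF10, and donors 9/21 and 6/22 lie above the rest for EGF.

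VEGFA, the main endothelial growth factor, had the highest readout of the 7 genes. At P3 its −ΔCT ran from −3.97 to −0.88 with a median of −1.74, and at P6 from −4.02 to −1.94 with a median of −2.33. The groups overlapped, and the lowest P3 sample, that of donor 6/21, lay close to the P6 samples of donors 6/21 and 14/21 (−3.88 and −4.02). The P3 mean was −1.88 ± 0.913 and the P6 mean −2.68 ± 0.810 (SD over 9 donors), equal to 27.1% and 15.6% of the reference level. The log2 difference was −0.80 (SE 0.436, 95% interval −1.72 to 0.11), a 1.74-fold lower mean at P6 (limma adjusted p = 0.873).

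Within donors VEGFA was lower at P6 in 6 of 9, by −2.28 in donor 14/21, −1.43 in 6/22, −1.41 in 1/22, −1.24 in 2/22, −0.80 in 3/22 and −0.50 in 9/21. In the other 3 donors, 6/21, 13/21 and 7/22, it was higher by 0.09, 0.14 and 0.22. The 6 lower values thus exceeded in size every one of the 3 higher ones. Blocking on the donor in limma gave VEGFA alone of the 7 genes an unadjusted p under 0.05 (0.0358), beside 8.33% of the 84 genes, and 0 of the 7 an adjusted p under it, beside 2.38%, with 0.430 for VEGFA. The methods' test, run on linear levels without pairing, likewise called VEGFA alone of the 7 before adjustment, beside 4.76% of the array, and 0% after it. The exact permutation test over the 18 samples gave p = 0.0661, and the exact test over sign changes within donors gave p = 0.0313 (adjusted 0.375). The smallest p that the sign-change test can give is 0.0039, so a gene could pass over the 84 only together with several others.

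FGF2, a mitogen that stromal cells both make and respond to, had the smallest SD of the 7 genes at both passages. Its −ΔCT ran from −6.33 to −4.77 with a median of −5.21 at P3, and from −6.48 to −4.40 with a median of −5.15 at P6. The whole P3 range lay within that of P6. The lowest and the highest donor differed 2.94-fold at P3 and 4.24-fold at P6, where VEGFA spanned about as much (4.22-fold). The P3 mean was −5.44 ± 0.639 and the P6 mean −5.35 ± 0.703 (SD over 9 donors), and the log2 difference was 0.09 (SE 0.362, 95% interval −0.67 to 0.85, limma adjusted p = 0.982). The level was higher at P6 in 5 donors and lower in 4, and the direction of the mean turned (−0.07) when each sample was scaled to the median of its detected genes instead of the reference genes, a scaling that moved the median of all 84 genes by −0.16. The gene NUDT6, whose annotated span overlaps that of FGF2 in the dog reference annotation (UU_Cfam_GSD_1.0), had a log2 difference of −0.14 (SE 0.578, limma adjusted p = 0.982), and its level did not track that of FGF2 across the 9 donors (r = −0.12 at P3, exact permutation p = 0.717, and −0.16 at P6, p = 0.760).

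HGF, the ligand of MET, had the widest range of the 5 genes detected in every sample. At P3 its −ΔCT ran from −13.41 to −5.34 with a median of −10.02, a 268-fold span between donors 6/22 and 14/21. At P6 it ran from −16.23 to −4.12 with a median of −7.11, a 4423-fold span between donors 9/21 and 13/21. The groups overlapped over all of the P3 range, and only the P6 sample of donor 9/21, at a CT of 30.93, lay below every P3 sample.

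The P6 level of HGF was higher in 7 of 9 donors, which was reached in the direction of the mean by 25% of the 84 genes. It was higher by 4.66 in donor 6/22, 4.39 in 7/22, 2.73 in 3/22, 1.77 in 13/21 and 1.75 in 1/22, and by 0.25 and 0.08 in 2/22 and 6/21. It was lower by −5.22 in donor 9/21 and by −1.10 in 14/21. The P3 mean was −9.29 ± 2.82 and the P6 mean −8.26 ± 3.57 (SD over 9 donors), and the difference of 1.03 (SE 1.45, 95% interval −2.02 to 4.09) had a limma adjusted p of 0.873. The difference of the medians was larger, at 2.91. Without donor 9/21 the difference of the means was 1.81, and with the donor block added to that fit limma gave an unadjusted p of 0.0274 and an adjusted p of 0.380, an alternative chosen after the values were seen. Among the 4 donors numbered /21 the difference was −1.12, which rested on donor 9/21 (−5.22). Among the 5 numbered /22 it was 2.75 (limma adjusted p = 0.742), and the gap between these donors was not tested. Donors 6/22 and 7/22, where HGF rose most, were also the oldest dogs, at 60 and 36 months. The part of age was not tested.

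FGF10, a mesenchymal signal to epithelium, ran from −11.73 to −8.30 at P3 with a median of −9.91, and from −14.03 to −8.19 at P6 with a median of −9.32. The groups overlapped, but donor 6/22 at P6 lay below every other sample, 3.32 below its nearest neighbour at that passage. Donors 13/21 (−8.19) and 9/21 (−8.23) at P6 lay just above the P3 range. Its P3 mean was −9.85 ± 1.04 and its P6 mean −9.90 ± 1.77 (SD over 9 donors), a difference of −0.05 (SE 0.680, 95% interval −1.48 to 1.38, limma adjusted p = 0.996). All 4 donors numbered /21 were higher at P6, by 0.73 to 1.97, whereas 4 of the 5 donors numbered /22 were lower. Those 4 differed by −4.25 in donor 6/22, −1.60 in 1/22, −0.43 in 2/22 and only −0.05 in 7/22, and donor 3/22 was higher by 0.64. What that number stands for is not stated in the labels, and the difference between these donors was not tested. The difference of the medians was 0.59, and the sign of the mean difference turned (0.27) without donors 9/21 and 6/22.

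IGF1 was detected in all 9 donors at P3, at CTs of 26.44 to 32.41, and in 6 of 9 at P6. Its −ΔCT ran from −17.01 to −12.00 at P3 with a median of −15.32, and from −20.87 (an undetected well) to −10.00 at P6 with a median of −15.13. The P6 samples thus lay on both sides of the P3 range. Donors 6/21, 2/22 and 7/22 had no crossing at P6, which bounds their differences at −2.99, −4.68 and −5.55 or lower, and donor 1/22 was lower by −3.61. Donor 6/22 was higher by 5.13 and donor 3/22 by 1.88, and the remaining 3 donors differed by −0.51 to 0.82.

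The SD of IGF1 was 1.70 at P3 and 3.82 at P6, a ratio of 2.25. Its P3 mean was −15.00 and its P6 mean −16.01, a log2 difference of −1.003 (SE 1.34, 95% interval −3.81 to 1.81, limma adjusted p = 0.873), while the medians differed by 0.19 in the other direction. The size of this difference depended on the CT given to undetected wells: a limit of 32 cycles gave −0.05 and a limit of 40 gave −2.67. Leaving the undetected wells out, which removes only the 3 lowest P6 samples, gave 1.17. The ratio of the mean linear levels, in which the P6 samples of donors 6/22 and 13/21 weigh most, was 1.41 on the log2 scale. The share of donors with a detected well, 9 of 9 against 6 of 9, did not pass Fisher's exact test (p = 0.206), which called 0 of the 7 genes before adjustment, beside 2.38% of the 84, and 0% of the array after it.

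EGF, a mitogen of epithelia, was the nearest of the 7 genes to the detection limit at P3. Wells of donors 1/22, 2/22 and 3/22 did not cross at P3, and the other 6 P3 wells crossed at 29.27 to 34.79 cycles. At P6 the wells of donors 9/21 and 6/22 crossed at 21.91 and 22.26 cycles, that of donor 1/22 only after the limit of 35, and the other 6 between 32.06 and 34.63. At P6 therefore 2 donors stood at −7.21 and −7.75 and the other 7 between −19.88 (a bound) and −17.55, with a median of −17.77 over the 9, whereas the P3 samples ran from −20.21 to −14.92 with a median of −18.66.

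EGF had a P3 mean of −18.18 ± 1.93 and a P6 mean of −15.97 ± 4.90 (SD over 9 donors), and the difference of 2.20 (SE 1.68, 95% interval −1.32 to 5.73) had a limma adjusted p of 0.873. Donor 9/21 was higher by 13.00 and donor 6/22 by 7.16. With undetected wells set to 35 cycles, the others differed by −3.06 to 1.70. The 1.70 of donor 3/22 and the −0.10 of donor 2/22 are lower bounds, since neither was detected at P3. Donor 1/22 (−0.59) was detected at neither passage, so its difference has no bound. Without donors 9/21 and 6/22 the mean difference was −0.05. On the linear scale, which weights the highest samples most, the log2 ratio of the means was 7.26.

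BDNF, a neurotrophin that also acts on vessels, ran from −12.33 to −6.48 at P3 with a median of −8.95, and from −12.81 to −4.68 at P6 with a median of −8.59. The P3 range lay within that of P6. At P6 donor 2/22 (−4.68) lay above every P3 sample, and donors 6/21 (−12.81) and 13/21 (−12.49) lay below every P3 sample. The P3 mean of BDNF was −9.45 ± 2.05 and its P6 mean −9.12 ± 2.79 (SD over 9 donors), a difference of 0.33 (SE 1.11, 95% interval −2.01 to 2.67, limma adjusted p = 0.982). Donor 2/22 was higher by 4.12 and donor 1/22 lower by −2.11, and the other 7 donors differed by −0.89 to 0.95. Without 1 donor at a time the mean difference ran from −0.14 to 0.64.

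**Figure D2:**
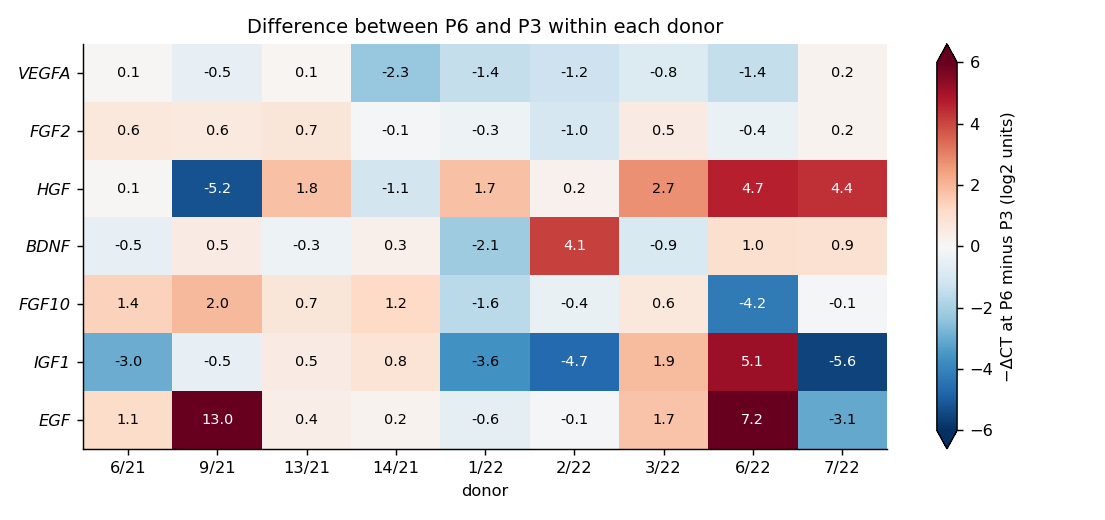
Difference in −ΔCT between P6 and P3 within each donor (columns) for each growth factor gene (rows), in log2 units, red for higher and blue for lower at P6, with the colour scale ending at 6 units in either direction. VEGFA is lower in 6 of 9 donors and HGF higher in 7 of 9, and the 2 darkest EGF cells are donors 9/21 (13.0) and 6/22 (7.2).

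**Figure D3:**
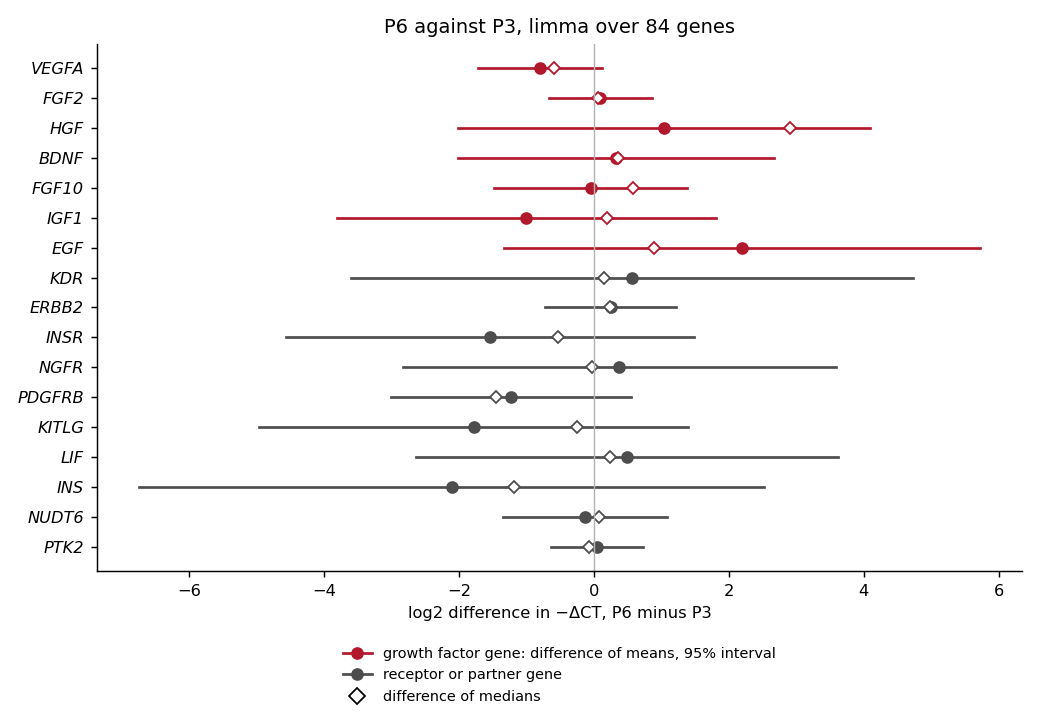
Log2 difference in −ΔCT between P6 and P3 (horizontal axis) for the 7 growth factor genes (red) and 10 receptor and partner genes (grey), as the difference of means with its 95% interval from limma and, as an open diamond, the difference of medians. The intervals come from the fit without the donor block, and every one of them crosses 0. With the block that of VEGFA was −1.54 to −0.065. The mean and median lie on opposite sides of 0 for FGF10 and IGF1 among the growth factors.

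The order of the readouts was VEGFA, FGF2, HGF, BDNF, FGF10, IGF1 and EGF at P3. Assays of different genes can differ in efficiency, so this is an order of readouts per reference transcript and not of molecules. VEGFA stood above FGF2 in 9 of 9 donors at both passages, by 3.56 ± 1.04 at P3 and 2.66 ± 1.27 at P6 (SD of the difference within donors). FGF2 stood above HGF in 8 of 9 donors at each passage, the exception being donor 13/21, where both crossed at 20.33 cycles at P3 and HGF stood above FGF2 at P6.

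HGF, BDNF and FGF10 had no stable order among themselves. HGF was above BDNF in 4 of 9 donors at P3 and 5 of 9 at P6, with mean differences of 0.15 ± 4.49 and 0.85 ± 5.83. BDNF was above FGF10 in 6 and 5 donors, by 0.40 ± 1.92 and 0.78 ± 3.55. FGF10 was above IGF1 by 5.15 ± 1.22 in 9 of 9 donors at P3. By the P6 means EGF came next after FGF10, by 6.08 ± 5.77 and in the same order in 7 of 9 donors. EGF stood ahead of IGF1 by 0.03 ± 4.27, in 5 of 9 donors. By the P6 medians IGF1 (−15.13) stood above EGF (−17.77), and IGF1 was detected in only 6 of 9 donors there. The last pair of neighbours did not differ beyond its spread at P6, and at P3 IGF1 was ahead of EGF by 3.17 ± 2.59 in 7 of 9 donors.

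The donors' own order was compared between the passages, over 7 relations. BDNF kept it best, with r = 0.79 (exact permutation p = 0.0135, adjusted p = 0.0944) and rho = 0.77 (p = 0.0214, adjusted p = 0.129), and r = 0.53 once the 2 donors farthest from the P3 median were dropped. Donors 6/21 and 13/21 had the lowest BDNF at both passages. HGF gave r = 0.57 (exact permutation p = 0.0989, adjusted p = 0.231) and rho = 0.72 (p = 0.0369, adjusted p = 0.129), and FGF2 gave r = 0.62 (p = 0.0767, adjusted p = 0.231). VEGFA gave r = 0.51 (exact permutation p = 0.167, adjusted p = 0.292), which rested on donor 6/21, low at both passages, since r was 0.07 without that donor. For IGF1, EGF and FGF10 r was 0.41, 0.21 and 0.16. None of the 7 relations passed after adjustment over all 9 donors, although that of BDNF did without donor 1/22 (r = 0.90, exact permutation adjusted p = 0.0313) or 2/22 (r = 0.90, adjusted p = 0.0359), and the 4 donors numbered /21 and 5 numbered /22 are too few for values within each.

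Across donors HGF and BDNF ran in opposite directions at each passage. The relation was r = −0.69 at P3 (exact permutation p = 0.0446) and −0.68 at P6 (p = 0.0371), with rho of −0.57 (p = 0.121) and −0.77 (p = 0.0214), and r of −0.66 and −0.72 once the 2 donors most distant from median HGF were dropped. Donors 6/21, 13/21, 14/21 and 3/22 combined the highest HGF with the lowest BDNF at both passages. This pair was singled out among 42 relations, 21 pairs of genes at each passage, after the values were seen, and the adjusted p was 0.312 at P3 and 0.311 at P6. The same 9 donors give both passages, so the second relation is not a separate set of animals. Of the donors with high HGF and low BDNF, 13/21 and 14/21 were Toy Poodles, 3/22 a Medium Poodle and 6/21 a German Spaniel. No other donor was recorded as a poodle, and the part of breed was not tested. The differences between P6 and P3 of HGF and BDNF were not related across donors (r = −0.08, exact permutation p = 0.840, and rho = 0.12, p = 0.776).

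**Figure D4:**
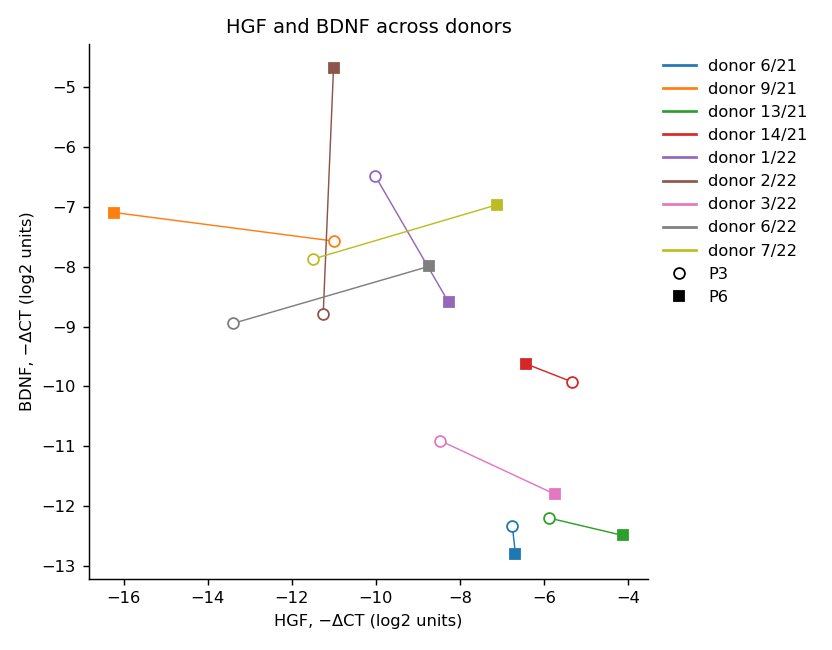
BDNF level (vertical axis) against HGF level (horizontal axis), both as −ΔCT in log2 units, with 1 colour per donor, circles for P3 and squares for P6, joined within a donor. Donors with high HGF lie low for BDNF at both passages (r = −0.69 at P3 and −0.68 at P6), and the lines within donors share no direction.

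Of the 42 relations 6 had an unadjusted p under 0.05 and 0 passed after adjustment. The highest was that of VEGFA with FGF10 at P3 (r = 0.80, exact permutation p = 0.00957, adjusted p = 0.270), which was 0.49 once the 2 donors most distant from median VEGFA were dropped. FGF2 with BDNF at P6 gave r = −0.77 (exact permutation p = 0.0188, adjusted p = 0.270).

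The genes whose pattern was most like that of each growth factor were taken from the 50 others detected in all 18 samples, by Pearson's r of the deviations from the passage means. These are descriptions over 18 samples from 9 donors that share the reference genes of their plate. HGF was most like NT5E (CD73, r = 0.72) and KITLG (stem cell factor, 0.69) and most opposed to ACTA2 (smooth muscle actin, −0.76). The likeness to KITLG rested on the P6 sample of donor 9/21, extreme for both genes, since r was 0.29 without it, whereas r with NT5E was 0.73 and with ACTA2 −0.75. BDNF was most like PTK2 (focal adhesion kinase, 0.73) and GDF15 (0.73) and most opposed to NT5E (−0.74), so NT5E stood at opposite ends for HGF and BDNF. FGF2 was most like ANPEP (CD13, r = 0.81) and SOX9 (0.74), and most opposed to the Notch ligand JAG1 (−0.71). VEGFA was most like TGFB3 (0.81) and SOX2 (0.61), and FGF10 was most like TGFB3 (0.57) and CEBPD (0.56).

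Of the 15 cell type markers, 9 lay within the range of the other P6 samples in the P6 sample of donor 9/21 and 11 did in that of donor 6/22. In the sample of donor 9/21, HGF at −16.23 lay below and EGF at −7.21 above all other P6 samples. The markers outside the range there were KDR (2.52), MCAM (−2.93), ACTA2 (1.75), CD44 (−0.63) and PTPRC (−15.90) above it and THY1 (−7.12) below it. The endothelial marker VWF (−14.35, median of the others −12.93) and the mural marker PDGFRB (−8.14, median −7.08) were within the range, on its low side. The endothelial marker KDR and the mural markers MCAM and ACTA2 lay above it, and the mesenchymal markers CD44 and THY1 lay on opposite sides. In the sample of donor 6/22, IGF1 at −10.00 lay above and FGF10 at −14.03 and FGF2 at −6.48 below all others. The markers outside the range there were ADIPOQ (adiponectin, −8.33), VWF (−7.60) and ENG (−1.89) above it and NT5E (−12.69) below it. The adipocyte marker LPL (−15.62, median of the others −14.45) was on the low side. PPARG (−5.16, median of the others −10.94) and KDR (−4.43, median −9.41) were on the high side. They lay within a range that reached 7.56 for PPARG in donor 1/22 and 2.52 for KDR in donor 9/21. The summed log2 level of the endothelial markers VWF and KDR was between −11.60 and −8.06 (median −8.90) in P3 samples. In P6 samples it was between −14.01 and 2.52 (median −9.02), the top being KDR of donor 9/21. That of the adipocyte markers ADIPOQ, LPL and PPARG was between −10.86 and −8.64 (median −9.74) at P3. At P6 it was between −11.80 and 7.56 (median −9.37). The top was PPARG of donor 1/22, in whose P6 sample ADIPOQ was not detected and LPL stood at −14.04. The part of these cell type markers in the growth factor levels was not tested.

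Receptors and partners of the growth factors on the array were described by 10 genes chosen for their role. In limma 0 of the 10 passed, before or after adjustment, 5 had a higher and 5 a lower mean at P6, and 4 (INS, KITLG, INSR and PDGFRB) were at least 2-fold lower, beside 25% of the 84 genes. Of the 5 receptors, KDR, the main signalling receptor for VEGFA, had a mean difference of 0.56 (SE 1.98, adjusted p = 0.982), and it was higher at P6 in 7 of 9 donors. It ran at P6 from an undetected well in donor 7/22 to 2.52 in donor 9/21, where it exceeded the reference level.

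ERBB2, the partner of the EGF receptor, differed by 0.25 (SE 0.459, limma adjusted p = 0.944), and NGFR, a receptor for BDNF and other neurotrophins, by 0.38 (SE 1.52, adjusted p = 0.982). INSR, which binds insulin and more weakly IGF1, differed by −1.54 in the mean and −0.53 in the median (limma adjusted p = 0.873). It was lower in 7 of 9 donors, and the P6 sample of donor 7/22 lay at −20.03 against a median of −7.52. PDGFRB, a receptor of platelet-derived growth factor, differed by −1.23 (SE 0.846, limma adjusted p = 0.873).

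Among the other ligands, KITLG differed by −1.78 in the mean and −0.25 in the median (limma adjusted p = 0.873), with the P6 sample of donor 9/21 at −17.88 against a median of −3.93. LIF, a cytokine that maintains stem cells in the mouse, differed by 0.49 (SE 1.49, limma adjusted p = 0.982). Insulin (INS) was near the detection limit in most samples, but crossed at 13.29 cycles in the P3 sample of donor 14/21, and its mean difference was −2.11 although it was higher at P6 in 6 of 9 donors. PTK2, a kinase that links growth factor and integrin signals, differed by 0.05 (SE 0.325, limma adjusted p = 0.986).

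**Figure D5:**
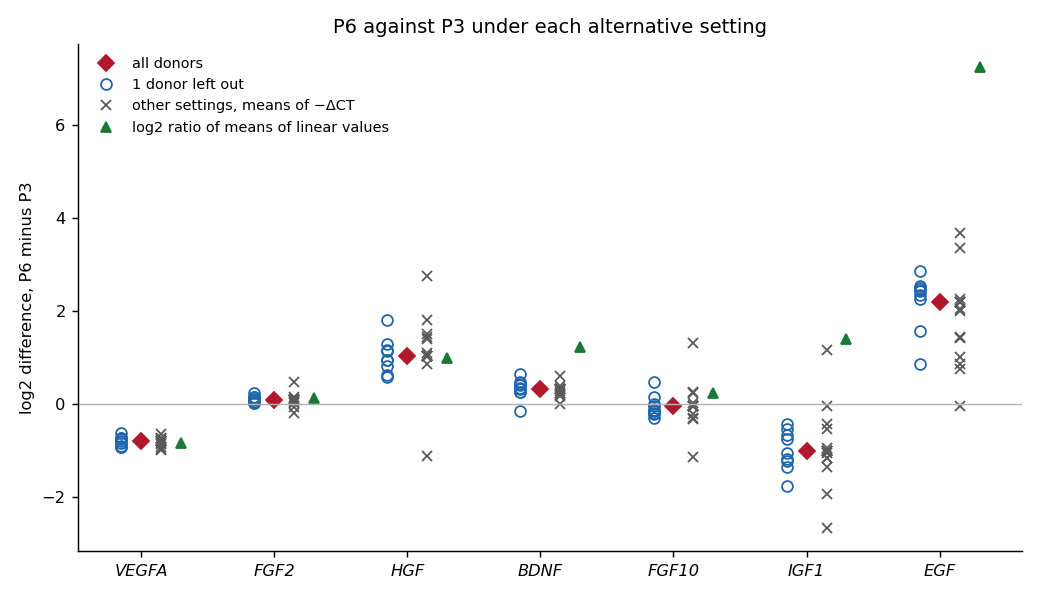
Log2 difference between P6 and P3 (vertical axis) of each growth factor gene with all donors (red), with 1 donor left out (blue), under the other settings (crosses) and as the log2 ratio of mean linear levels (green). VEGFA stays between −0.99 and −0.62 under every setting drawn, whereas EGF runs from −0.05 to 7.26 and IGF1 from −2.67 to 1.41.

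VEGFA was the only one of the 7 genes whose difference kept its sign under all 26 settings tried, from −0.99 to −0.62, and its lowest adjusted p among them was 0.308 in limma. Not all of these settings could turn it. The donor block, the CT limits, late wells left missing, the filter on mean CT and the exact tests leave the VEGFA difference at −0.80. HGF kept its sign in all but the donors numbered /21, and FGF2, FGF10, IGF1, EGF and BDNF each turned at least once. No setting gave any of the 7 genes an adjusted p under 0.05. For the exact test over sign changes this was nearly fixed in advance, since its smallest possible p is 0.0039.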

How the data were processed

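CT values of an RT-qPCR array (84 genes, 5 reference genes and 7 control wells, 1 well per gene and sample) were used as the authors deposited them, a score in cycles before any limit or scaling; wells without a crossing were marked as undetermined. CTs above 35 and undetermined wells were set to 35, and the geometric mean CT of ACTB, B2M, HPRT1, PGK1 and RPL13A was subtracted per sample. The means of these values per passage differed from the deposited mean ΔCT by at most 0.00489 cycles over 168 values. The deposited fold changes were not used. P6 was compared with P3 by limma 3.58.1 in R 4.3.3 (least squares, two-sided, Benjamini-Hochberg adjustment over 84 genes), without a block because the methods' test is unpaired. The SEs and intervals given beside a mean difference come from this fit, which leaves the pairing out, unless the block is named. The same dogs gave both passages, so the donor number pairs the samples. Deviations of a donor's 2 samples correlated at 0.066 to 0.643 (median 0.161), and those of other pairs at a median of −0.03. A donor's P3 sample correlated best with its own P6 sample only in donors 6/21, 13/21, 2/22 and 3/22. Exact permutation tests ran over 48620 divisions or 512 sign changes, and relations across donors over 362880 pairings (fewer where a donor was left out), with SciPy 1.17.1. The limma step was tested on simulated normal values without donor pairing, a CT limit or outlying wells. That test therefore says nothing on how limma handles those features here.

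Groups and donors came from the labels, and ages and breeds from the methods. The 7 genes, the receptor and partner list and the marker list were chosen with earlier results of these data known. The receptor and partner genes and markers were named by role, single markers where they stood outside the range of the other P6 samples beside a growth factor or belonged to the same type, and 2 most similar genes per growth factor by the highest r. With 1 well per gene, the spread between donors includes the error of a single well, and depth of sequencing does not apply. Alternatives were the CT limit (32 or 40 cycles, or late wells missing), the reference, a filter on mean CT above 30, robust regression, the donor block, the methods' test on linear levels, exact tests and donors left out. No sequence of an assay or gene was used here.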

Additional observations from a re-analysis of the deposited data

Results flagged for a closer look

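Of the 14 groups of 9 samples (7 genes at 2 passages), 2 held a sample whose gap to its nearest neighbour was large against the group's range, and chance marks about 1 in 20 such groups. VEGFA of donor 6/21 at P3 was −3.97, 1.75 below the next donor. FGF10 of donor 6/22 at P6 was −14.03, 3.32 below the next donor. No cause of either was tested.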

How the results depend on the processing

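Each of the 7 genes had an adjusted p above 0.05 under all alternatives, as with the chosen settings, and the donor block changed no call among the 7 genes. The sign of a mean difference turned in these cases, and the cause was not tested: HGF to −1.12 in donors /21 alone; FGF2 to −0.0711 with scaling to the median of detected genes and −0.21 in donors /22 alone; FGF10 to 0.24 under robust regression, 0.24 on linear levels, 0.0168 without ACTB and B2M, 1.32 in donors /21 alone and 0.27 without donors 9/21 and 6/22; IGF1 to 1.17 with late wells missing and 1.41 on linear levels; and EGF to −0.0495 without donors 9/21 and 6/22. Leaving out each donor gave 0.58 to 1.81 for HGF, −0.93 to −0.62 for VEGFA, 0.01 to 0.23 for FGF2, −0.30 to 0.48 for FGF10, −1.77 to −0.43 for IGF1, 0.85 to 2.86 for EGF and −0.14 to 0.64 for BDNF. EGF gave no value under the filter on mean CT.

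The 1 gene of 84 called by limma became 2 with the replicate block, 3 under robust regression, 2 with scaling to the median of detected genes and 2 with the filter on mean CT, and 0 with late wells missing, without ACTB and B2M, in donors /21 or /22 alone, without donors 9/21 and 7/22, without donors 9/21 and 6/22, by either exact test and by the methods' test; leaving out each donor gave 0 to 2. The donor order of VEGFA (r = 0.84, exact permutation adjusted p = 0.0357) and BDNF (r = 0.81, adjusted p = 0.0386) passed with scaling to the median of detected genes, and that of BDNF also without donor 1/22 (r = 0.90, adjusted p = 0.0313) or 2/22 (r = 0.90, adjusted p = 0.0359). Leaving out each donor gave r of 0.47 to 0.71 for HGF, 0.07 to 0.69 for VEGFA, 0.53 to 0.79 for FGF2, 0.05 to 0.38 for FGF10, 0.18 to 0.53 for IGF1, −0.32 to 0.69 for EGF and 0.72 to 0.90 for BDNF, and for HGF with BDNF −0.77 to −0.60 at P3 and −0.85 to −0.60 at P6. A CT limit of 32 or 40 cycles left 55 or 60 of the 63 wells detected at P3 and 53 or 60 at P6. It gave a difference of −0.05 or −2.67 for IGF1 and 1.45 or 3.36 for EGF.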
